A study of Mus musculus with 24 samples.

Results

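The genes of cholesterol synthesis, sterol sensing, sterol efflux and lipogenesis were followed in bulk RNA of C2C12 myotubes. Members were taken by gene symbol and matched to Ensembl identifiers with GENCODE M21, which gave 36 of the 55487 genes listed: 18 synthesis enzymes, 7 sterol regulators, 6 genes linked to the liver X receptors (LXR) and sterol efflux, and 5 lipogenic genes. C2C12 is a single immortalised line of wild-type mouse myoblasts that fuse into myotubes. Every group was differentiated under 5 % O2 and is labelled day 5. Myotubes kept for a further 2 h in 5 % O2 without stimulation are named 5 % CTRL, and those moved to 1 % O2 for 2 h without stimulation are named 1 % CTRL. The groups 5 % STIM and 1 % STIM had the same 2 h of 5 % or 1 % O2 followed by electrical stimulation (6 bouts of 30 s at 50 Hz, 4 min apart). Each group held 6 libraries, called biological replicates in the methods. The labels do not say that they came from separate cultures. If they did not, p-values measure only the spread between these samples. The methods state that medium was replaced before and after stimulation and do not state it for unstimulated wells at those times, so stimulation and this change of medium cannot be told apart. The labels give 2 h for every group. Labels and methods do not state whether unstimulated wells were also kept in their O2 for the time of the bouts. Stimulation and a longer time in 5 % or 1 % O2 therefore cannot be told apart either.

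Cells make cholesterol from acetyl-CoA through mevalonate, squalene and lanosterol. When sterols in the endoplasmic reticulum fall, the escort protein SCAP carries the SREBP transcription factors to the Golgi, where they are cut and go on to switch on synthesis genes, while the INSIG proteins hold SCAP back when sterols are plentiful. LXR senses oxysterols and switches on sterol export and turnover of lipoprotein receptors. Several of the enzymes, among them squalene epoxidase (Sqle), the lanosterol demethylase (Cyp51), the methylsterol oxidase (Msmo1), the sterol desaturase (Sc5d), the hydroxylase Ch25h and the fatty acid desaturases Scd1 and Scd2, consume molecular O2 in their reaction.

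Of the members, 29 had a promoter in the RefSeq table of GRCm38.p6, with 40 promoter windows between them, each running from 250 bases before to 50 after a start. Both strands were searched for a sterol element (TCACNCCAC), the core hypoxia elements (ACGTG or GCGTG), the NF-Y element (CCAAT) and the E-box CACGTG, which always counts also as a hypoxia core. The sterol element stood in 1 of the 40 windows, that of Hmgcs1, 137 bases before its start, against 1.24 % of all 32851 promoters. Hypoxia cores stood in 23 of the 40 windows, against 43.8 % of all promoters, NF-Y elements in 22 (37.4 % of all) and the E-box in 8 (7.15 % of all). Matched letters are a description and do not make a site, and a window without a match may hold a site with other letters. Sqle, Fdps, Fdft1, Stard4, Abcg1, Scd1 and Scd2 had no promoter in the RefSeq table and were not searched. The stretches shown are those of Hmgcs1, which carries the sterol element, and of 4 genes of sterol sensing that the results turn on, Insig1, Insig2, Rnf145 and Ch25h. They give the bases before the start, 5′ to 3′ on the gene's strand, up to the first base that RefSeq or GENCODE places in the transcript, with sterol elements or hypoxia cores in capitals. For Insig2 and Rnf145, with 3 starts each in the table, the start farthest upstream is shown.
Hmgcs1 (chr13:119690101-119690350, plus strand): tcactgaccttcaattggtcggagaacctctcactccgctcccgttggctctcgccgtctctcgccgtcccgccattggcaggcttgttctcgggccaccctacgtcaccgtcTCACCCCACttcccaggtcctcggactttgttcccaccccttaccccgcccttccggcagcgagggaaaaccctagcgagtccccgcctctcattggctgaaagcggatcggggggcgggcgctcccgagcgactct
Insig1 (chr5:28071162-28071362, plus strand): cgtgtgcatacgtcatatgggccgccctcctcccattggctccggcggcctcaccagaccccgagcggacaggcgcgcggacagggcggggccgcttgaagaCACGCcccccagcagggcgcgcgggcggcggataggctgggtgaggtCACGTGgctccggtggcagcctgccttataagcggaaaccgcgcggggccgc
Insig2 (chr1:121332590-121332839, minus strand): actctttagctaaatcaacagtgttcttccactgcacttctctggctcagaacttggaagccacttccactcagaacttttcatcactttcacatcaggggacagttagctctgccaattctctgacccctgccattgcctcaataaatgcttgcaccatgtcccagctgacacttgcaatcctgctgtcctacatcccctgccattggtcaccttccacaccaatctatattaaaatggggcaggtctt
Rnf145 (chr11:44518706-44518955, plus strand): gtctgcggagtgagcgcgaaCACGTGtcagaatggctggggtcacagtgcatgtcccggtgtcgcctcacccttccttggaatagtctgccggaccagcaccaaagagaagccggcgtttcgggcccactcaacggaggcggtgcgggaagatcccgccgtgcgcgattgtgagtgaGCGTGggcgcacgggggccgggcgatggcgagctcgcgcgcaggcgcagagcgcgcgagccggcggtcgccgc
Ch25h (chr19:34475165-34475398, minus strand): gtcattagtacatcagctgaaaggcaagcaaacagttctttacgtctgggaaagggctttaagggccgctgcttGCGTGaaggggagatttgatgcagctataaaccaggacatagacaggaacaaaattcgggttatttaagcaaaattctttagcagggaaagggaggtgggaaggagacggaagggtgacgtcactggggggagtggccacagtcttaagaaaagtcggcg
The stretch of Insig2 holds no hypoxia core, while its other 2 starts together hold 4. In Insig1 and Rnf145 the capitals include an E-box, read as a hypoxia core on both strands. The whole window of Insig1 holds 6 hypoxia cores, of which 3 lie in the bases shown. The other 2 starts of Rnf145 together hold 1.

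Libraries held 26541858 to 28173745 reads, and size factors ran from 0.955 to 0.992 at 5 % O2 and from 1.02 to 1.05 at 1 % O2. The first library of 1 % CTRL stood apart: long genes were higher in it (slope of 0.0945 log2 units per doubling of exon length, against -0.0367 to 0.055 in the other 23), and its correlation with its group was 0.988, against at least 0.992. All 11 myotube markers were detected in each group. Their summed normalized counts were 495178 to 539782 in 5 % CTRL, above every library of 1 % CTRL (438144 to 490826) and of 1 % STIM (436001 to 474459), and 455756 to 520236 in 5 % STIM. Single genes weigh heavily in these sums: Myh3 averaged 139000 in 5 % CTRL and 105591 in 1 % CTRL. Acta1, the highest of the markers, averaged 161576 and 163668 and was not called. Of the 11, 4 were called lower for O2 without stimulation, 8 with it, 2 for stimulation at 5 % O2 and 3 at 1 % O2, and 0 higher. Of all genes tested 30.5 %, 28.4 %, 12 % and 10.8 % were called lower in these comparisons. Called higher were 29.4 %, 29 %, 9.44 % and 11.5 % of them. With libraries scaled to the same total the marker counts were 2, 4, 2 and 2 lower and 3, 1, 1 and 0 higher. Myog, the factor that drives differentiation, averaged 30613 normalized counts in 5 % CTRL and 21265 in 5 % STIM, against 19439 in 1 % CTRL and 12522 in 1 % STIM, and was called lower with either factor, also with the same total. The myoblast markers Pax7 and Myf5 together were at 309 to 364 in 5 % CTRL and 317 to 345 in 5 % STIM, below the 504 to 531 of 1 % CTRL and the 494 to 556 of 1 % STIM. With stimulation the pair moved apart: Pax7 was called lower (means of 179 and 137 at 5 % O2, 287 and 225 at 1 % O2) and Myf5 higher (149 and 194 at 5 % O2, 231 and 306 at 1 % O2). The part of these marker differences in the results on O2 and on stimulation was not tested. The fat cell markers Plin1, Cidec and Cfd were at 0 in every library, and the whole list of 5 summed to at most 7.22. A list of 4 macrophage markers summed to 38.1 to 89.1, and a list of 4 liver markers to at most 1.02. In bulk RNA, fewer cells of a type and less RNA per cell cannot be told apart.

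All 36 members passed the filter on low values, which asked for 6 or more libraries with a normalized count of 10 or higher, and were tested with limma on log2(normalized count + 1), where a log2 fold change understates that of low genes. A member was called at a Benjamini-Hochberg adjusted p under 0.05 over all 14541 genes tested. Members were chosen with earlier results of these data known, so the shares called are a description and not a test. Of the 36, 33 had a mean normalized count of at least 100, and the shares over all genes were not matched for level. Under 1 % O2 without stimulation 24 members (66.7 %) were called, in a comparison where 59.9 % of all genes were called. Of these members 14 were higher (29.4 % of all genes) and 10 lower (30.5 % of all). Between 1 % STIM and 5 % STIM 27 (75 %) were called, against 57.4 % of all genes, with 13 higher (29 % of all) and 14 lower (28.4 % of all). With stimulation at 5 % O2 24 members (66.7 %) were called against 21.4 % of all genes, 20 of them higher (9.44 % of all genes) and 4 lower (12 % of all). At 1 % O2 24 members were again called, against 22.3 % of all genes, with 14 higher (11.5 % of all) and 10 lower (10.8 % of all). The response to stimulation at 1 % O2 differed from that at 5 % O2 for 16 members (44.4 %), against 11.3 % of all genes, and it was the lower one in 15 of the 16 (5.43 % of all genes) and the higher one in 1 (5.88 % of all).

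**Figure D1:**
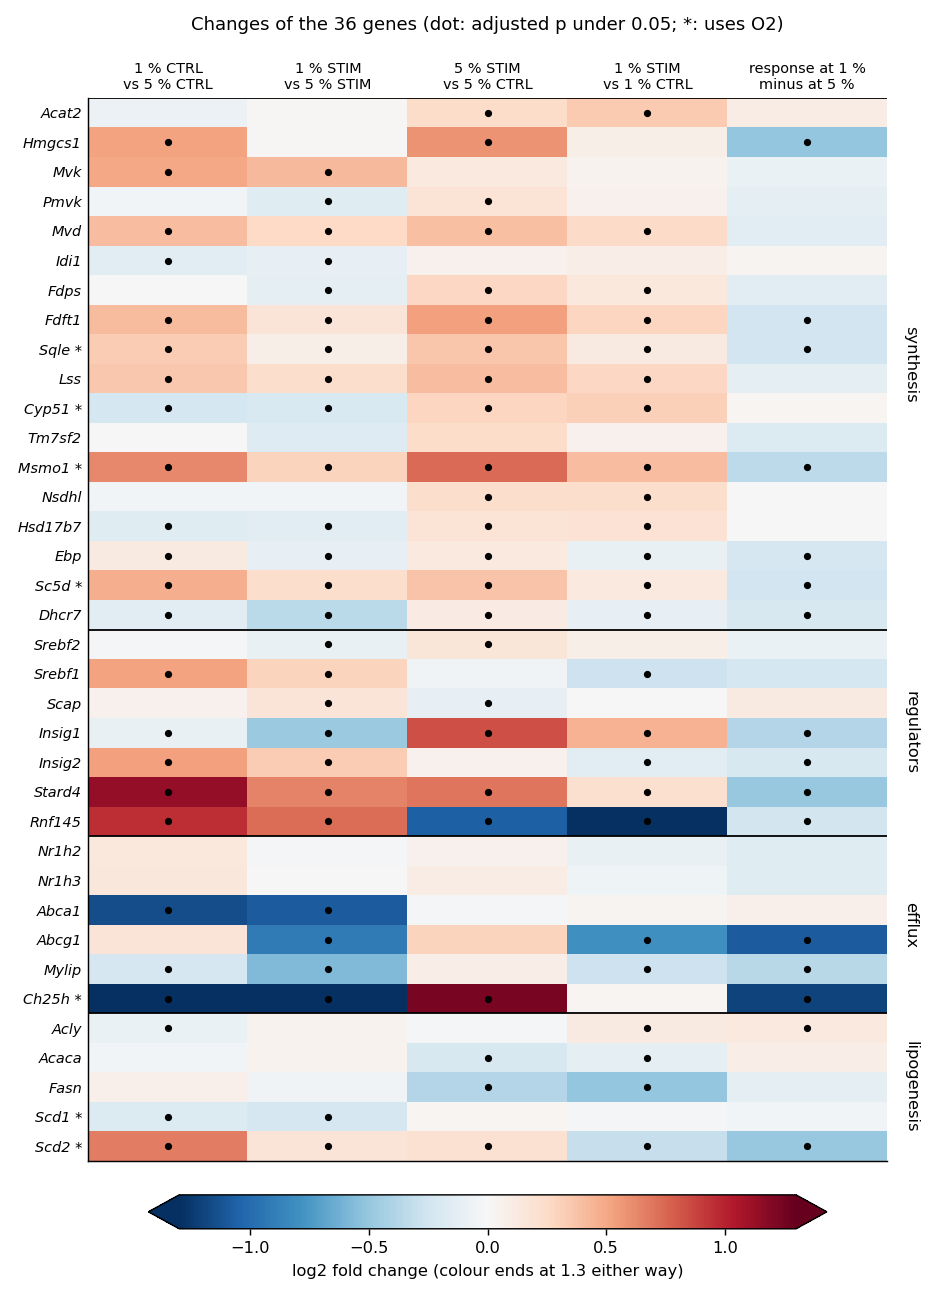
Log2 fold changes of the 36 genes (rows, grouped by role, synthesis genes in pathway order) in the 4 pairwise comparisons and in the difference of the responses to stimulation (columns). Red is higher, blue is lower, and a black dot marks an adjusted p under 0.05. With stimulation at 5 % O2, 15 of the 18 synthesis genes were called higher and 0 lower, against 9.44 % and 12 % of all genes.

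The split into higher and lower depended on the scaling of the libraries. With all libraries scaled to the same total, the share of calls that were higher over all genes moved from 49 % to 62.7 % for O2 without stimulation, from 50.4 % to 63.2 % for O2 with stimulation, from 44 % to 62.1 % for stimulation at 5 % O2 and from 51.4 % to 62.4 % at 1 % O2. For the members the same scaling gave 17 higher and 5 lower, 16 and 9, 22 and 3, and 15 and 7 in these comparisons. Without the first library of 1 % CTRL, 26 members were called for O2 without stimulation (14 higher, 12 lower), against 61.6 % of all genes. In the same fit 25 were called for stimulation at 1 % O2 (16 higher, 9 lower), against 25.8 % of all genes. For the difference of the responses it called 16 members, against 15.9 % of all genes. Groups were free of overlap between their libraries for 19 members for O2 without stimulation (38.2 % of all genes tested) and for 18 with stimulation (37.3 %). The same held for 20 members for stimulation at 5 % O2 (11.1 % of all) and for 16 at 1 % O2 (11.2 %). The comparisons of 1 % CTRL and of 5 % STIM with 5 % CTRL share their control libraries, and each group stands in a comparison of O2 and in one of stimulation.

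Synthesis genes rose with stimulation at 5 % O2 in 15 of 18 cases, by a median log2 fold change of 0.256 over the 18 against -0.008 over all genes tested. The other 3, Mvk, Idi1 and Tm7sf2, had log2 fold changes of 0.13, 0.06 and 0.23 and were not called. In that comparison 9.44 % of all genes were called higher and 12 % lower. At 1 % O2 stimulation raised 11 and lowered 2 of them (median 0.131, against -0.003 over all genes), where 11.5 % of all genes were higher and 10.8 % lower. Under 1 % O2 without stimulation 9 were higher and 4 lower (median 0.064, against 0.001), in a comparison where 29.4 % of all genes were higher and 30.5 % lower. With stimulation 7 were higher and 7 lower under 1 % O2 (median -0.011, against -0.001), where 29 % of all genes were higher and 28.4 % lower. The O2 splits depended on the scaling: with libraries scaled to the same total 10 were higher and 2 lower without stimulation, where Idi1 and Dhcr7 lost their calls and Fdps gained one. With stimulation it gave 8 higher and 3 lower, as Pmvk, Idi1, Fdps and Ebp lost their calls and Hmgcs1 gained one. The same scaling gave 16 higher and 0 lower for stimulation at 5 % O2 and 12 and 0 at 1 % O2. Of all 14541 genes it gave 5669 higher and 3378 lower for O2 without stimulation, and 5466 and 3182 with it. For stimulation it gave 1860 and 1133 at 5 % O2, and 2142 and 1293 at 1 % O2.

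Msmo1 (chr8:64718139-64733792, GRCm38), the oxidase that starts the removal of methyl groups from lanosterol-derived sterols, had the largest rise of the synthesis genes under 1 % O2 without stimulation and with stimulation at either O2 level. Its normalized count was 1750.4 to 1934 (median 1811) in 5 % CTRL and 2681 to 3024 (median 2779) in 1 % CTRL. It was 2886 to 3252 (median 3027) in 5 % STIM and 3497 to 4067 (median 3655) in 1 % STIM. All 6 libraries of 1 % STIM lay above those of the other 3 groups, and all 6 of 5 % CTRL lay below them. The log2 fold change was 0.62 ± 0.037 (SE, adjusted p = 3.47e-16) for O2 without stimulation and 0.73 ± 0.037 (SE, adjusted p = 5.43e-17) for stimulation at 5 % O2. It was smaller for O2 with stimulation, 0.29 ± 0.037 (SE, adjusted p = 5.1e-08), and for stimulation at 1 % O2, 0.40 ± 0.037 (SE, adjusted p = 2.37e-10).

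Hmgcs1, the cytosolic synthase that commits acetoacetyl-CoA to the mevalonate route, was raised by each factor alone and to a like level. It stood at 6785 to 7555 (median 7169.8) in 5 % CTRL and at 9817 to 11315 (median 10076) in 1 % CTRL. In 5 % STIM it was 10448 to 10927 (median 10779) and in 1 % STIM 10214 to 11984 (median 10818). The 5 % CTRL libraries lay below all 18 others, which overlapped each other. The log2 fold change was 0.52 ± 0.036 (SE, adjusted p = 2.14e-14) for 1 % O2 alone and 0.58 ± 0.036 (SE, adjusted p = 1.07e-14) for stimulation alone. Stimulation at 1 % O2 gave 0.08 ± 0.036 (SE, adjusted p = 0.116), which did not pass the test but was called with libraries scaled to the same total (0.10, adjusted p = 0.0308) and without the first library of 1 % CTRL (0.11, adjusted p = 0.0148). Of the stretches of 75 bases in Hmgcs1 transcripts, 9.79 % also occur in other genes, among them an antisense gene, and the counting did not use strand.

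Mvk, the mevalonate kinase, followed O2 and not stimulation in its calls. Its count was 420.2 to 494 (median 451) in 5 % CTRL and 612 to 663 (median 645) in 1 % CTRL, without overlap, with a log2 fold change of 0.51 ± 0.05 (SE, adjusted p = 1.26e-10). With stimulation it was 459 to 530.3 (median 485) at 5 % O2 and 611 to 752 (median 651) at 1 % O2, again without overlap, and the log2 fold change for O2 was 0.42 ± 0.05 (SE, adjusted p = 8.97e-09). Stimulation itself gave 0.13 ± 0.05 (SE, adjusted p = 0.0653) at 5 % O2, which was called only with a replicate block or with libraries scaled to the same total, and 0.04 ± 0.05 (SE, adjusted p = 0.617) at 1 % O2.

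Mvd, the mevalonate diphosphate decarboxylase, responded to both. It ran over 502 to 651 (median 581) in 5 % CTRL, 675 to 797 (median 770.1) in 1 % CTRL, 691 to 819 (median 739) in 5 % STIM and 841 to 999.2 (median 878) in 1 % STIM, and the libraries of 1 % STIM lay above all the others. O2 without stimulation gave a log2 fold change of 0.41 ± 0.055 (SE, adjusted p = 1.01e-07), and with stimulation 0.26 ± 0.055 (SE, adjusted p = 0.000139). The remaining enzymes on the way to farnesyl diphosphate moved less. Pmvk, Idi1 and Fdps had log2 fold changes between -0.16 and 0.27 over the 4 pairwise comparisons, and those of Acat2, the cytosolic thiolase that opens the route, were called for stimulation at both O2 levels and, for O2, only without the first library of 1 % CTRL. Acat2 stood at 1411 to 1646 (median 1471) in 1 % CTRL and 1720.5 to 2139 (median 1849) in 1 % STIM, without overlap, a log2 fold change of 0.34 ± 0.045 (SE, adjusted p = 3e-07). Of the Acat2 stretches 33.9 % recur in Acat3 or in Tcp1 on the opposite strand, and 23.6 % of those of Idi1 and 23.5 % of those of Fdps recur in pseudogenes and other genes, so that their counts are uncertain.

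From squalene onwards the enzymes split. Fdft1, squalene synthase, was 1641 to 1866 (median 1761) in 5 % CTRL and 2262 to 2472 (median 2332) in 1 % CTRL, and 2427 to 2696 (median 2549.6) in 5 % STIM and 2654 to 3291 (median 2764) in 1 % STIM. The 5 % CTRL libraries lay below all others, while 5 % STIM overlapped both 1 % CTRL and 1 % STIM. The log2 fold change with stimulation was 0.53 ± 0.041 (SE, adjusted p = 3.29e-12) at 5 % O2 and 0.28 ± 0.041 (SE, adjusted p = 2e-06) at 1 % O2. Of its stretches 21.8 % recur in other genes, among them Ctsb on the opposite strand. Lss, which folds squalene epoxide into lanosterol, rose in all 4 comparisons, from 1216 to 1452 (median 1342) in 5 % CTRL to 1636 to 1924 (median 1757) in 5 % STIM, a log2 fold change of 0.40 ± 0.045 (SE, adjusted p = 1.36e-08).

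Cyp51, Hsd17b7 and Dhcr7 went the other way and were called lower at 1 % O2 without and with stimulation. Earlier in the route Idi1 was also called lower, by -0.14 ± 0.046 (SE) without and -0.11 ± 0.046 (SE) with stimulation. Pmvk, Fdps and Ebp were called lower at 1 % O2 only among stimulated myotubes. The lower calls of Idi1, Pmvk, Fdps and Ebp were lost with libraries scaled to the same total. Cyp51 was 5522 to 5849 (median 5812) in 5 % CTRL and 4734 to 5162 (median 4855) in 1 % CTRL, without overlap, and the log2 fold change was -0.23 ± 0.034 (SE, adjusted p = 4.69e-07). With stimulation Cyp51 rose at both O2 levels, to 6621 to 7477 (median 6868) in 5 % STIM and 5695 to 6519 (median 6157) in 1 % STIM, and the stimulated groups did not overlap either. Hsd17b7, a ketoreductase of the same stage of methyl group removal as Msmo1, had the same signs at smaller size (-0.16 ± 0.035 for O2 and 0.18 ± 0.035 for stimulation at 5 % O2). Dhcr7, the reductase of the last step, was 3544 to 3875 (median 3670.0) in 5 % STIM and 2718 to 3248 (median 2841) in 1 % STIM, without overlap, a log2 fold change of -0.35 ± 0.034 (SE, adjusted p = 8.06e-11). Its smaller fall without stimulation, -0.15 ± 0.034 (SE, adjusted p = 0.000324), was lost with libraries scaled to the same total (adjusted p = 0.0846).

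**Figure D2:**
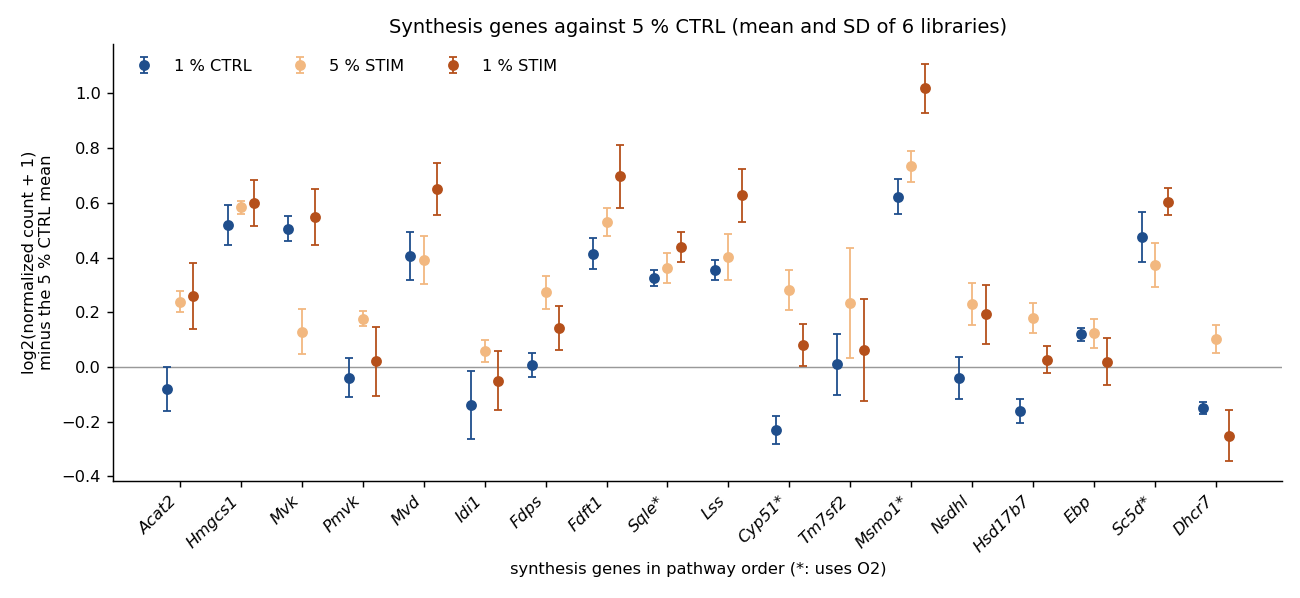
Level of each synthesis gene (x axis, in pathway order) in 1 % CTRL, 5 % STIM and 1 % STIM, as log2(normalized count + 1) minus the mean of 5 % CTRL (y axis); points are means of 6 libraries and bars their SD. Msmo1 lies highest in all 3 groups, and asterisks mark the enzymes that use O2. In 1 % CTRL Cyp51, Hsd17b7, Dhcr7 and Idi1 lie below 0 and were called lower. Acat2, Nsdhl and Pmvk also lie below 0 there and were not called.

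The 4 synthesis enzymes that use O2 were called in every pairwise comparison, as 4 of 4 each time, while of the other 14 synthesis genes 9 and 10 were called for O2 without and with stimulation, and 11 and 9 for stimulation at 5 % and 1 % O2. Of all genes 59.9 % and 57.4 % were called for O2 and 21.4 % and 22.3 % for stimulation, and the difference between the 4 and the 14 was not tested. They did not share a direction under 1 % O2, where Sqle, Msmo1 and Sc5d were higher and Cyp51 lower. With stimulation all 4 were higher at either O2 level. Sc5d was 1389 to 1499 (median 1424) in 5 % CTRL and 1881 to 2223 (median 1960.3) in 1 % CTRL, without overlap, and its log2 fold change was 0.48 ± 0.039 (SE, adjusted p = 1.45e-12). Sqle was 4338 to 5021 (median 4710.3) in 5 % CTRL, 5702 to 6020.4 (median 5915) in 1 % CTRL, 5715 to 6318 (median 6047) in 5 % STIM and 6084 to 6637 (median 6401) in 1 % STIM. The 5 % CTRL libraries of Sqle lay below all the others, and the log2 fold change with stimulation was 0.36 ± 0.032 (SE, adjusted p = 6.68e-11) at 5 % O2 and 0.11 ± 0.032 (SE, adjusted p = 0.00859) at 1 % O2. Its difference between 1 % STIM and 5 % STIM, 0.07 ± 0.032 (SE, adjusted p = 0.0443), was lost with a replicate block, without the filter on low values and with the gene length trend removed. The median log2 fold change for O2 without stimulation was 0.4 over the 4 and 0.008 over the other 14, which was not tested.

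Among the sterol regulators, 1 % O2 without stimulation raised Stard4, Rnf145, Insig2 and Srebf1 and lowered Insig1. Stimulation at 5 % O2 raised Insig1, Stard4 and Srebf2 and lowered Rnf145 and Scap. Of all genes 29.4 % were higher and 30.5 % lower for O2 without stimulation, and 9.44 % and 12 % for stimulation at 5 % O2. With libraries scaled to the same total 5 regulators were higher and 0 lower for O2 without stimulation, and 4 and 1 for stimulation at 5 % O2. Of all 14541 genes, that scaling gave 5669 higher and 3378 lower in the first comparison, and 1860 and 1133 in the second. All 7 were called between 1 % STIM and 5 % STIM, where 57.4 % of all genes were, 5 of them higher (29 % of all genes) and 2 lower (28.4 % of all). Of these calls that of Srebf2 (-0.09 ± 0.038) was lost with libraries scaled to the same total.

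Stard4, a carrier that moves cholesterol between membranes, was 775 to 897 (median 820.4) in 5 % CTRL and 1689 to 2153 (median 1791) in 1 % CTRL. With stimulation it was 1279 to 1424 (median 1317) at 5 % O2 and 1982 to 2219 (median 2103) at 1 % O2. The 5 % CTRL libraries lay lowest, those of 5 % STIM next, and the groups at 1 % O2 above both, overlapping each other. Stard4 was 2.20-fold its 5 % CTRL level under 1 % O2 (log2 fold change 1.14 ± 0.047 SE, adjusted p = 1.9e-20) and 1.62-fold with stimulation (0.69 ± 0.047 SE, adjusted p = 1.19e-13). Stimulation at 1 % O2 added 0.20 ± 0.047 (SE, adjusted p = 0.0013).

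Rnf145 (chr11:44518964-44565520), an E3 ubiquitin ligase of the endoplasmic reticulum membrane that acts on the sterol-sensing machinery, responded in opposite directions to 1 % O2 and to stimulation. Its count was 1431 to 1562 (median 1491) in 5 % CTRL and 2822 to 3232 (median 2852) in 1 % CTRL. It was 640.0 to 785 (median 707) in 5 % STIM and 1060.0 to 1245 (median 1199) in 1 % STIM. None of the 4 groups overlapped another. The log2 fold change was 0.96 ± 0.046 (SE, adjusted p = 6.6e-19) for 1 % O2 without stimulation and 0.72 ± 0.046 (SE, adjusted p = 1.87e-15) with it. Stimulation lowered Rnf145, with a log2 fold change of -1.07 ± 0.046 (SE, adjusted p = 6.84e-19) at 5 % O2 and -1.31 ± 0.046 (SE, adjusted p = 1.99e-21) at 1 % O2.

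The paralogs Insig1 and Insig2, both of which retain SCAP in the endoplasmic reticulum, differed in which factor moved them most. Insig1 (chr5:28071363-28078662) was 1769.7 to 1966 (median 1908) in 5 % CTRL and 1659.7 to 1829.8 (median 1775) in 1 % CTRL. It was 3221 to 3523 (median 3430.4) in 5 % STIM and 2243 to 2646 (median 2446) in 1 % STIM, and both stimulated groups lay above both unstimulated ones without overlap. Stimulation raised it 1.79-fold at 5 % O2 (log2 fold change 0.84 ± 0.037 SE, adjusted p = 1.3e-18) and 1.37-fold at 1 % O2 (0.46 ± 0.037 SE, adjusted p = 7.56e-12). Among stimulated myotubes Insig1 was lower at 1 % O2 (-0.48 ± 0.037 SE, adjusted p = 2.77e-13). Without stimulation its difference was -0.10 ± 0.037 (SE, adjusted p = 0.0192), a call lost with libraries scaled to the same total (adjusted p = 0.665).

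Insig2 (chr1:121304353-121332589) was 1423 to 1550.1 (median 1514) in 5 % CTRL and 2059 to 2257 (median 2168) in 1 % CTRL. It was 1496 to 1605 (median 1571) in 5 % STIM and 1873 to 2036 (median 1986) in 1 % STIM, so that the groups at 1 % O2 lay above those at 5 % O2. The log2 fold change for O2 was 0.53 ± 0.032 (SE, adjusted p = 3.6e-16) without and 0.33 ± 0.032 (SE, adjusted p = 8.31e-11) with stimulation. Stimulation at 5 % O2 gave 0.06 ± 0.032 (SE, adjusted p = 0.187), which was called only with libraries scaled to the same total (0.09, adjusted p = 0.0423), and at 1 % O2 -0.14 ± 0.032 (SE, adjusted p = 0.000851). The log2 ratio of the normalized counts of Insig2 to Insig1 in the same library, not corrected for length, computed after the values were seen and not tested, was -0.33 ± 0.067 (SD, n = 6) in 5 % CTRL and 0.30 ± 0.044 in 1 % CTRL. With stimulation it was -1.11 ± 0.051 at 5 % O2 and -0.30 ± 0.091 at 1 % O2. The ratio was thus highest in 1 % CTRL and lowest in 5 % STIM, and in each of the 4 pairwise comparisons the libraries did not overlap.

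Srebf1 and Srebf2 encode the SREBP factors, the first tied mainly to fatty acid synthesis and the second to cholesterol synthesis. Srebf1 was 1149 to 1509 (median 1311) in 5 % CTRL and 1726 to 1966 (median 1891) in 1 % CTRL, without overlap, a log2 fold change of 0.52 ± 0.057 (SE, adjusted p = 6.43e-09). With stimulation it was 1149.5 to 1455 (median 1269) at 5 % O2 and 1502 to 1700.1 (median 1538) at 1 % O2, and from 1 % CTRL to 1 % STIM it fell with a log2 fold change of -0.27 ± 0.057 (SE, adjusted p = 0.000829). Srebf2 overlapped in each pairwise comparison, from 7146 to 8102 in 5 % CTRL to 7898 to 9223 in 5 % STIM, and rose with stimulation at 5 % O2 by 0.16 ± 0.038 (SE, adjusted p = 0.00249). Srebf2 at 1 % O2 without stimulation differed by -0.01 ± 0.038 (SE, adjusted p = 0.809), which was not called. Scap, the escort itself, stayed between 1374 and 1721 in every library. Its log2 fold change was 0.17 ± 0.034 (SE, adjusted p = 6.42e-05) for O2 with stimulation and -0.11 ± 0.034 (SE, adjusted p = 0.0164) for stimulation at 5 % O2, the latter lost with libraries scaled to the same total and with the gene length trend removed.

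**Figure D3:**
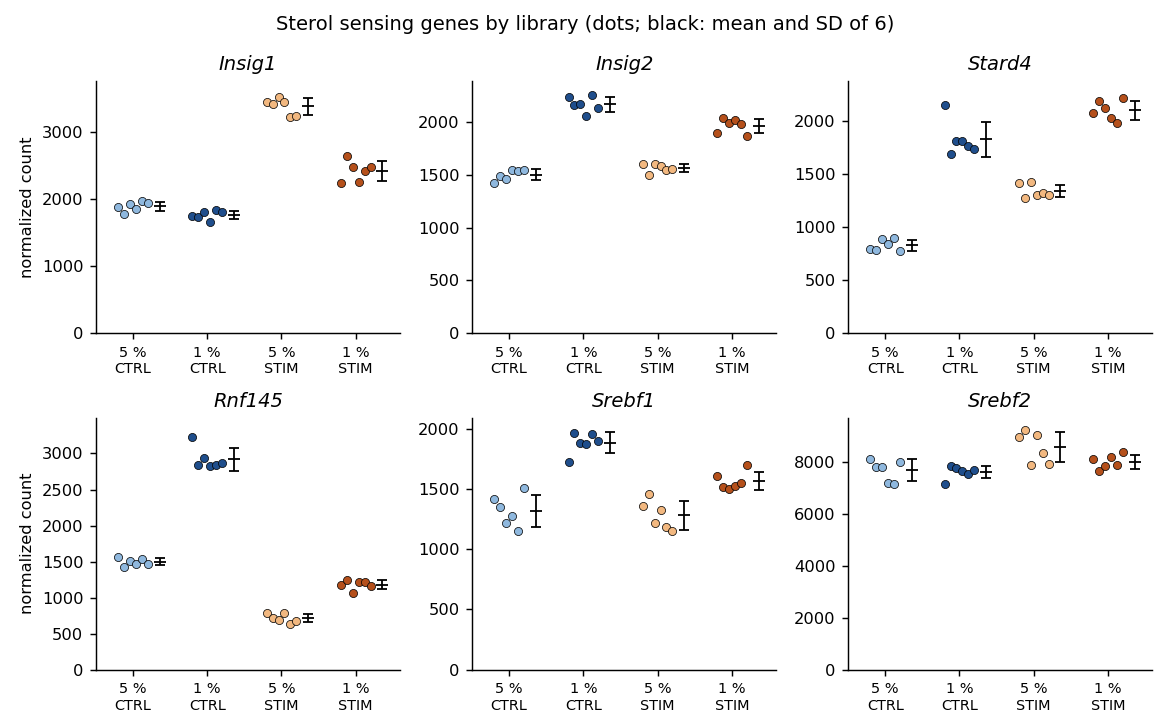
Normalized counts (y axis, from 0) of 6 sterol sensing genes in the 6 libraries of each group (dots), with mean and SD in black. Insig1 is highest in 5 % STIM (3221 to 3523), Insig2 is higher in the groups at 1 % O2, and Rnf145 is highest in 1 % CTRL (2822 to 3232) and lowest in 5 % STIM (640 to 785).

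Of the 6 LXR-linked and efflux genes, 3 were lower and 0 higher under 1 % O2 without stimulation, and 4 were lower and 0 higher with it. The counts depend on how genes were placed: Rnf145 and Srebf1, counted among the regulators here, were called higher in both comparisons. Of all genes 30.5 % and 28.4 % were lower in these comparisons, and 59.9 % and 57.4 % were called in either direction. With libraries scaled to the same total the lower genes were 2 and 4, where 3378 and 3182 of all 14541 genes were lower. The median log2 fold change without stimulation was -0.038, against 0.001 over all genes, and 3 of the 6 lay above 0. With stimulation the median was -0.744, against -0.001 over all genes. Among the genes lower with stimulation, Abca1 and Abcg1 had few reads. The receptors themselves did not pass the test in any comparison. Nr1h2 lay between 581 and 909.5 in all 24 libraries and Nr1h3, with few reads, between 15.1 and 32.4.

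Ch25h (chr19:34473778-34475164), which makes an oxysterol that both holds back SREBP processing and activates LXR, had the largest log2 fold changes of all members for O2. Its count was 138 to 196 (median 157) in 5 % CTRL and 34.4 to 48.9 (median 37.5) in 1 % CTRL. In 5 % STIM it was 317 to 432 (median 377), and in 1 % STIM 32.4 to 51.6 (median 36.9). The groups at 1 % O2 overlapped each other and lay below every library at 5 % O2, and 5 % STIM lay above 5 % CTRL. The log2 fold change for O2 was -2.01 ± 0.12 (SE, adjusted p = 1.17e-16) without stimulation and -3.22 ± 0.12 (SE, adjusted p = 4e-22) with it, which put 1 % STIM at 0.107 of the 5 % STIM level. Stimulation raised Ch25h 2.35-fold at 5 % O2 (1.24 ± 0.12 SE, adjusted p = 2.81e-10), and at 1 % O2 the difference was 0.03 ± 0.12 (SE, adjusted p = 0.909). Of its stretches 6.47 % are shared with Gm26902 on the opposite strand.

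Abca1 (chr4:53030787-53159895), the exporter that loads cholesterol onto apolipoproteins, was scarce and followed O2. It was 34.8 to 53.4 (median 44.3) in 5 % CTRL and 10.7 to 26.9 (median 20.9) in 1 % CTRL, without overlap, with a log2 fold change of -1.16 ± 0.19 (SE, adjusted p = 3.47e-06). Between 1 % STIM and 5 % STIM it was -1.09 ± 0.19 (SE, adjusted p = 1.04e-05), and with stimulation it was -0.03 ± 0.19 (SE, adjusted p = 0.94) at 5 % O2 and 0.04 ± 0.19 (SE, adjusted p = 0.92) at 1 % O2. Mylip, an E3 ligase that sends lipoprotein receptors to degradation, was 227 to 331 (median 289.9) in 5 % STIM and 177 to 206 (median 189) in 1 % STIM, without overlap, a log2 fold change of -0.57 ± 0.075 (SE, adjusted p = 6.15e-08). Between 1 % CTRL (218 to 255) and 5 % CTRL (238 to 316) Mylip differed by -0.21 ± 0.075 (SE, adjusted p = 0.0141), a call lost with libraries scaled to the same total (adjusted p = 0.126). Abcg1, a sterol exporter, ranged from 5.78 to 26.2 over the 24 libraries, near the filter. It was lower in 1 % STIM than in 5 % STIM, at a log2 fold change of -0.92 ± 0.24 (SE, adjusted p = 0.00164), and than in 1 % CTRL, at -0.80 ± 0.24 (SE, adjusted p = 0.0155).

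Among the lipogenic genes the desaturases parted under 1 % O2. Scd2 (chr19:44293674-44306864) was 34926 to 39728 (median 37389) in 5 % CTRL and 57302 to 64276 (median 58136) in 1 % CTRL, without overlap, a log2 fold change of 0.67 ± 0.04 (SE, adjusted p = 1.02e-15). With stimulation Scd2 was 40157 to 45578 (median 42258) at 5 % O2 and 44432 to 52502 (median 47781) at 1 % O2. Its direction with stimulation was higher at 5 % O2 (0.20 ± 0.04 SE, adjusted p = 0.000321) and lower at 1 % O2 (-0.30 ± 0.04 SE, adjusted p = 5.66e-07). Scd1 was 18218 to 20626 (median 19064) in 5 % CTRL, 16094 to 18841 (median 16614) in 1 % CTRL, 18793 to 20855 (median 19225) in 5 % STIM and 15827 to 17414 (median 16760.2) in 1 % STIM. It was lower at 1 % O2 both without stimulation, where the groups overlapped (-0.18 ± 0.034 SE, adjusted p = 4.42e-05), and with it (-0.22 ± 0.034 SE, adjusted p = 2.12e-06).

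The log2 ratio of Scd2 to Scd1 normalized counts, again computed after the values were seen and not tested, was 0.96 ± 0.049 (SD, n = 6) in 5 % CTRL and 1.80 ± 0.027 in 1 % CTRL. With stimulation it was 1.13 ± 0.044 at 5 % O2 and 1.52 ± 0.066 at 1 % O2. Its libraries did not overlap in any of the 4 pairwise comparisons. Of the stretches of Scd1 3.15 %, and of those of Scd2 1.78 %, recur in genes of the same family.

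Fasn, fatty acid synthase, was lower with stimulation at both O2 levels. It was 6362 to 7857 (median 6899) in 5 % CTRL and 5164 to 5656 (median 5314) in 5 % STIM, without overlap, and the log2 fold change was -0.38 ± 0.038 (SE, adjusted p = 1.03e-09). At 1 % O2 it went from 6663 to 7625 (median 7465) without to 4931 to 5361 (median 5226) with stimulation, -0.50 ± 0.038 (SE, adjusted p = 1.43e-12), and its differences with O2 were 0.07 ± 0.038 and -0.05 ± 0.038 and not called. With libraries scaled to the same total the difference without stimulation was called (0.15, adjusted p = 0.000921). Acaca, acetyl-CoA carboxylase, was 2955 to 3369 (median 3071) in 5 % CTRL and 2545 to 2886 (median 2677) in 5 % STIM, a log2 fold change of -0.21 ± 0.045 (SE, adjusted p = 0.000714). At 1 % O2 the fall of Acaca with stimulation, -0.13 ± 0.045 (SE, adjusted p = 0.0404), was lost without the first library of 1 % CTRL, which gave -0.07 (adjusted p = 0.123). Of the Acaca stretches 26.8 % recur in pseudogenes and other genes. Acly, which releases acetyl-CoA from citrate, was 6298 to 6966 (median 6466) in 5 % CTRL, 5937 to 6532 (median 6081) in 1 % CTRL, 6329 to 6627 (median 6439) in 5 % STIM and 6336 to 6982 (median 6699) in 1 % STIM. Its calls were small, -0.09 ± 0.029 (SE, adjusted p = 0.0112) for O2 without stimulation, lost with libraries scaled to the same total (adjusted p = 0.877), and 0.12 ± 0.029 (SE, adjusted p = 0.00256) for stimulation at 1 % O2.

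**Figure D4:**
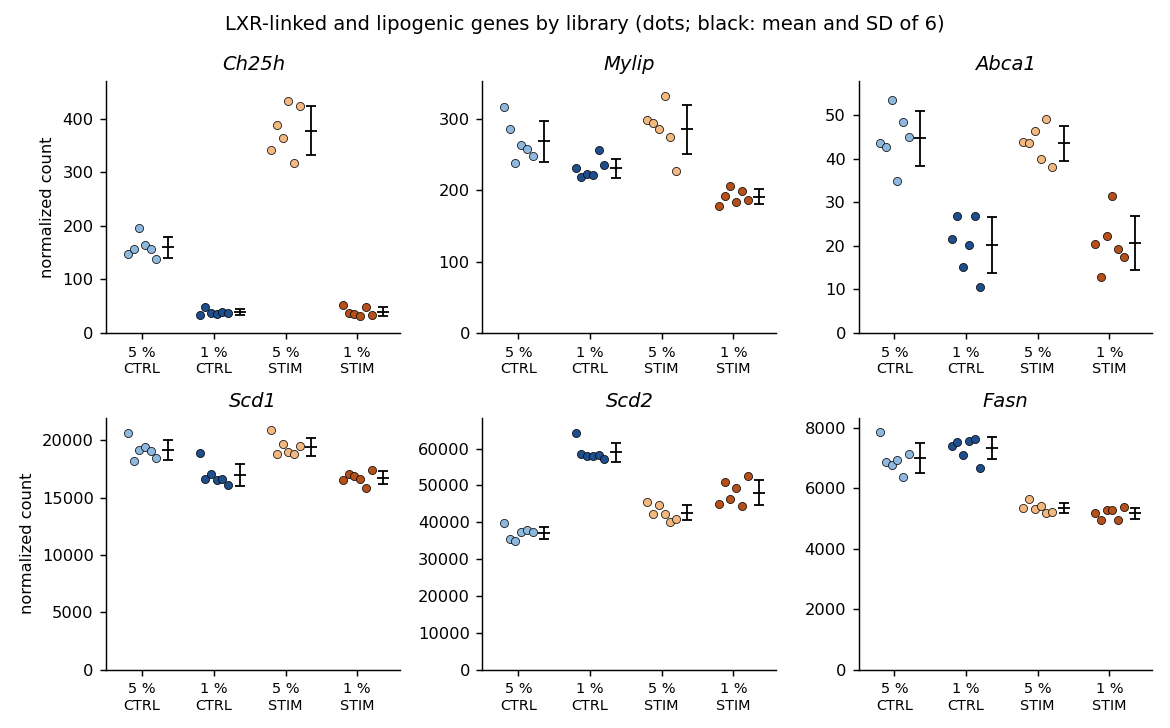
Normalized counts (y axis, from 0) of 3 LXR-linked and 3 lipogenic genes in the 6 libraries of each group (dots), with mean and SD in black. Ch25h is highest in 5 % STIM (317 to 432) and stays between 32.4 and 51.6 at 1 % O2, and Fasn is lower in both stimulated groups.

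The response to stimulation was tested for a difference between O2 levels by the interaction, the log2 fold change at 1 % O2 minus that at 5 % O2. It was called for 7 synthesis genes, 4 regulators and 3 efflux genes, all negative, and for the lipogenic genes Scd2 (negative) and Acly (positive). Of all genes tested 11.3 % were called, 5.43 % negative and 5.88 % positive. The median over the 36 members was -0.154, against 0.007 over all genes tested. Ch25h had the largest difference, -1.21 ± 0.16 (SE, adjusted p = 2.66e-06), a rise at 5 % O2 without a called change at 1 % O2. Hmgcs1 had a difference of -0.50 ± 0.051 (SE, adjusted p = 8.22e-09), with a rise at 5 % O2 and at 1 % O2 a value of 0.08 whose call depended on the scaling and on the first library of 1 % CTRL, and Scd2, at -0.50 ± 0.056 (SE, adjusted p = 1.36e-07), was raised at 5 % O2 and lowered at 1 % O2.

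Stard4 (-0.49 ± 0.067 SE, adjusted p = 3.15e-06), Insig1 (-0.38 ± 0.052 SE, adjusted p = 3.18e-06) and Msmo1 (-0.34 ± 0.053 SE, adjusted p = 2.57e-05) rose with stimulation at both O2 levels, and less at 1 % O2. So did Sqle (-0.25 ± 0.045 SE, adjusted p = 0.000193), Fdft1 (-0.25 ± 0.058 SE, adjusted p = 0.00406) and Sc5d (-0.24 ± 0.055). Rnf145 fell at both and fell more at 1 % O2 (-0.24 ± 0.064 SE, adjusted p = 0.0114). Insig2 (-0.20 ± 0.045 SE, adjusted p = 0.00222) and Mylip (-0.36 ± 0.11 SE, adjusted p = 0.025) were lowered by stimulation at 1 % O2 and not called at 5 % O2, except Insig2 with libraries scaled to the same total. Without the filter on low values the difference of Mylip was lost (adjusted p = 0.0505). Ebp (-0.22 ± 0.049) and Dhcr7 (-0.20 ± 0.048), late enzymes of the route, were called higher at 5 % O2 and lower at 1 % O2, the latter by -0.10 and -0.10 and lost with libraries scaled to the same total. For Acly the difference was 0.13 ± 0.041 (SE, adjusted p = 0.0353), also lost without the filter (adjusted p = 0.0563). Abcg1, at -1.09 ± 0.34 (SE, adjusted p = 0.0361), lost its call without the first library of 1 % CTRL (-0.98, adjusted p = 0.0535). It was lost without the filter as well (adjusted p = 0.0645). Of the 11 synthesis genes without a called difference, Nsdhl (0.0037 ± 0.061), Hsd17b7 (0.01 ± 0.05), Cyp51 (0.03 ± 0.048) and Idi1 (0.03 ± 0.065) had values within 1 SE of 0. Fdps, another of them (-0.14 ± 0.048 SE, adjusted p = 0.0573), was called with libraries scaled to the same total, with the gene length trend removed and with DESeq2.

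**Figure D5:**
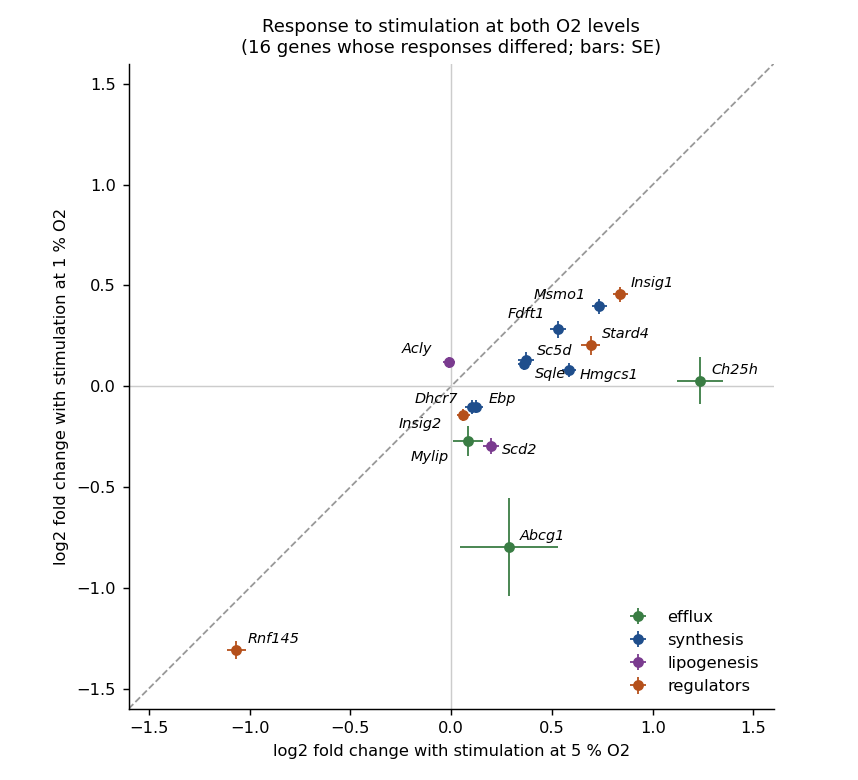
Log2 fold change with stimulation at 5 % O2 (x axis) against that at 1 % O2 (y axis) for the 16 genes whose responses differed, coloured by role; bars are SE and the dashed line marks equal responses. All but Acly lie below the line, with Ch25h farthest from it at 1.24 and 0.03.

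The levels of the members were compared per length, as the mean normalized count per kilobase of exon. In 5 % CTRL Scd2 (6797) and Scd1 (3912) led, followed by Hmgcs1 (1560.1), Idi1 (1465) and Cyp51 (1302). Srebf2, at 1069 per kilobase, stood above Srebf1 at 234, and Insig1 (611) above Insig2 (432), an order that was turned in 1 % CTRL (569.7 and 625). Lowest were Nr1h3 (8.62), Abca1 (4.31) and Abcg1 (1.89). The coefficient of variation between the 6 libraries of a group had a median of 4.91 % over the 33 members with a mean normalized count of at least 100 and of 26.3 % over the other 3.

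Of a list of 41 further genes of sterol and lipid metabolism, 38 were tested. Under 1 % O2 16 were higher and 13 lower without stimulation, and 13 and 15 with it, 76.3 % and 73.7 % of those tested, against 59.9 % and 57.4 % of all genes. Stimulation raised 9 and lowered 4 at 5 % O2 (34.2 %, against 21.4 % of all genes) and raised 6 and lowered 5 at 1 % O2 (28.9 %, against 22.3 %). Hilpda, an inhibitor of lipolysis on lipid droplets, stood at 224 to 245 (median 234) in 5 % CTRL and 788 to 879 (median 839) in 1 % CTRL, a log2 fold change of 1.83 ± 0.059 (SE, adjusted p = 2.25e-23). Lpin1, a phosphatidate phosphatase and coregulator, rose with each factor, by 1.06 ± 0.077 for O2 without stimulation and 0.89 ± 0.077 for stimulation at 5 % O2. The fatty acid elongase Elovl6 was higher at 1 % O2 (0.84 ± 0.078) and lower with stimulation at 5 % O2 (-0.36 ± 0.078), and Acsl3, an acyl-CoA synthetase, rose with stimulation by 0.40 ± 0.041 at 5 % O2 and 0.55 ± 0.041 at 1 % O2. Acacb and Dgat2, each near a count of 100, gave -0.77 ± 0.12 for O2 with stimulation and -0.39 ± 0.098 for stimulation at 1 % O2.

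The response to stimulation differed between O2 levels for 2 of the 38 (5.26 %), against 16 of the 36 members and 11.3 % of all genes tested. Vldlr, a receptor for triglyceride-rich lipoproteins, went from 1072 to 1226 (median 1122) in 5 % CTRL to 1968 to 2515 (median 2131) in 1 % CTRL and to 1759 to 2012 (median 1876) in 5 % STIM. In 1 % STIM it was 1811 to 2103 (median 1994), so that the groups other than 5 % CTRL overlapped, and the difference of the responses was -0.88 ± 0.068 (SE, adjusted p = 3.31e-11). Gramd1a, which carries cholesterol from the plasma membrane, had a difference of -0.32 ± 0.073 (SE, adjusted p = 0.00257).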

How the data were processed

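The authors aligned reads of stranded mRNA libraries to GRCm38 with STAR 2.5.4b and quantified genes with RSEM 1.3.0 at default parameters, which do not use strand. The signal deposited by the authors is each gene's read count over a DESeq2 size factor, and 100 % of values came back as whole reads (tolerance 0.01), on which edgeR 4.0.16 and DESeq2 1.42.0 were run as alternatives. A second deposited table holds the authors' own fold changes and p-values and was not used. All 24 libraries entered a single limma 3.58.1 fit (R 4.3.3; trend and robust) of log2(normalized count + 1), without a replicate block, over genes at 10 or more in 6 or more libraries. Library totals were 26541858 to 28173745 reads, so this floor is about 10 reads. Calls were made at a Benjamini-Hochberg adjusted p under 0.05, and the fit was tested on simulated data. Exon lengths came from GENCODE M21 (99.5 % of identifiers matched) and promoters from RefSeq. Stretches of 75 bases shared with other genes were counted on its transcripts. The members and lists were chosen with earlier results of these data known. Of the called members with a mean of at least 100, those with the largest changes (up to 4 a role, 3 for lipogenesis, and 4 of the further genes) were given library ranges. Abca1, Abcg1 and other members outside this rule were described for completeness. Alternatives covered the pseudocount (10), filter, threshold (0.01), scaling, gene length, tool, replicate block and the library that stood apart.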

Additional observations from a re-analysis of the deposited data

Results flagged for a closer look

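The response to stimulation differed between O2 levels for 16 members by the interaction test of the limma fit (all 6 libraries of each of the 4 groups). On the log2 scale, as the response at 1 % O2 minus that at 5 % O2, the differences among synthesis genes were -0.50 for Hmgcs1, -0.25 for Fdft1, -0.25 for Sqle, -0.34 for Msmo1, -0.22 for Ebp, -0.24 for Sc5d and -0.20 for Dhcr7. Among regulators they were -0.38 for Insig1, -0.20 for Insig2, -0.49 for Stard4 and -0.24 for Rnf145. Among efflux genes they were -1.09 for Abcg1, -0.36 for Mylip and -1.21 for Ch25h, and among lipogenic genes 0.13 for Acly and -0.50 for Scd2.

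In 11 of the 144 sets of 6 libraries (36 genes in 4 groups), the highest or lowest library lay apart from the others by more than Dixon's critical share of the whole range, where chance gives about 1 in 20. The first library of 1 % CTRL, which also stood apart in its length trend, was the highest for Stard4 (2153), Rnf145 (3232), Acaca (3625), Scd1 (18841) and Scd2 (64276). The first library of 5 % STIM was the highest for Nsdhl (2537) and Hsd17b7 (1998) and the lowest for Nr1h3 (15.3). The sixth library of 1 % STIM was the highest for Ebp (1916) and Dhcr7 (3248), and the second of 1 % CTRL was the highest for Ch25h (48.9).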

How the results depend on the processing

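The counts of members called moved by less than 1.5 times under every alternative, over 20 to 26 for O2 without stimulation, 22 to 27 with it, 21 to 26 for stimulation at 5 % O2, 19 to 25 at 1 % O2 and 12 to 17 for the difference of the responses. No called member value changed sign. Of the 115 called values, 92 were called under every alternative that gave them a p, and 23 were lost under at least 1, most often with the threshold of 0.01 (21) or with libraries scaled to the same total. The first library of 1 % CTRL ended the calls of Acaca (stimulation at 1 % O2) and Abcg1 (difference of the responses) when left out, and added those of Acaca and Acat2 (O2 without stimulation), Idi1 and Hmgcs1 (stimulation at 1 % O2) and Srebf1 (difference of the responses). Without the filter on low values 27732 genes were tested and 31.1 % called for O2 without stimulation, against 59.9 %. Replicate numbers did not pair the samples: the mean correlation of same-numbered libraries' deviations between groups ran from -0.0102 to 0.0348, and at most 2 of 6 libraries correlated best with their own number. With the replicate number as a block, 24, 25, 26, 24 and 16 members were called (for O2 without and with stimulation, stimulation at 5 % and 1 % O2, and the difference), against 24, 27, 24, 24 and 16 without it. Idi1 and Sqle lost their calls for O2 with stimulation and Mvk and Tm7sf2 gained theirs for stimulation at 5 % O2. For Abcg1 DESeq2 gave no adjusted p for the difference. At the levels of Abcg1, Nr1h3 and Abca1 (normalized counts of 5.78 to 53.4), the spread between libraries had a median of 26.3 %. The SE of their log2 fold changes was 0.24, 0.18 and 0.19, and the smallest difference that could be detected was not computed. Over all genes, edgeR on the recovered whole reads called 8784 for O2 without stimulation, 8425 with it, 3156 and 3377 for stimulation at 5 % and 1 % O2 and 1688 for the difference, against 8708, 8346, 3115, 3245 and 1645 with limma. At the threshold of 0.01 limma called 1944 for stimulation at 5 % O2 and 830 for the difference, and without the first library of 1 % CTRL it called 2316 for the difference.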
